A study of Mus musculus with 24 samples.

Results

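The genes described here encode the subunits of the respiratory chain and of ATP synthase in mouse skeletal muscle. They were chosen by name: every non-control probe of the array whose gene name begins with Nduf, Uqcr, Cox4 to Cox8 or Atp5, or is Sdha, Sdhb, Sdhc or Sdhd, leaving out names that end in -ps. This gave 142 probes for 91 gene names, of 56605 probes and 37324 names in all. Complex I had 45 names, complex II 4, complex III 8, complex IV 17 and complex V 17. The complex was assigned by prefix alone, which counts Ndufa4 and Ndufa4l2 in complex I. Of the 91 names, 81 were counted as subunits by name and 10 share only the prefix: the 7 Ndufaf genes, Cox7a2l, Atp5s and Atp5sl.

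The muscle RNA came from 24 mice in 3 groups of 8. The HFD_O3 group combined a high fat diet with the omega 3 lineage, the HFD_Cont group combined the same diet with the control lineage, and the STD_Cont group combined the low fat control diet with the control lineage. No group paired the low fat diet with the omega 3 lineage, so HFD_O3 against HFD_Cont compares lineages under high fat feeding and HFD_O3 against STD_Cont mixes diet and lineage. Which muscle was taken, what defines the lineage, and the strain, sex, age and length of feeding are not stated in the labels.

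Complex I takes electrons from NADH and complex II takes them from succinate in the citric acid cycle. Both pass them through coenzyme Q to complex III, cytochrome c and complex IV, which reduces oxygen. Complexes I, III and IV pump protons, and complex V, ATP synthase, uses the return of the protons to make ATP. Muscle is rich in these complexes, more so in oxidative than in glycolytic fibres. All subunits of complex II and most of the others are encoded in the nucleus, and a small set is encoded in mitochondrial DNA. Nuclear subunit genes are known targets of NRF1, ETS factors such as GABPA, oestrogen-related receptors and YY1.

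Each RNA was labelled with 1 dye and read on its own array, so a level here is the log2 processed signal of a probe minus the 75th percentile of its array. Between 52.0% and 60.7% of spots on an array were well above background, and no spot was saturated. On the first 2 principal components of all genes, HFD_O3 array 7 lay farthest out on the first (27.8) and HFD_O3 array 1 on the second (-38.2). HFD_Cont array 4 stood apart in slow fibre genes: the slow myosin gene Myh7 had its lowest level of 1.91 there, against a group median of 6.87. All 90 tested respiratory chain genes were well above background on all 24 arrays. Cox8c, the testis form of a complex IV subunit, was above background on 0 arrays and was not tested. The number of arrays limits the precision of every value below. In whole muscle, fewer cells of a type and less RNA per cell cannot be told apart.

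Start regions are shown for the genes that carry the NRF1 letters on both strands and for Ndufs4, the member with the smallest adjusted p between diets. The RefSeq promoter table of GRCm38.p6 matched 74 of the 91 names, with 80 start sites. In the 250 bases before each start, both strands were searched for GCATGCGC (NRF1), CCGGAAGT (ETS factors), AAGGTCA (oestrogen-related receptors) and AAGATGGC (YY1), none of which holds another. The NRF1 letters were in 9 of the 80 windows, 11.2%, against 2.26% of all 32851 windows and 3.68% of the 14890 windows of other genes tested. They lay before Atp5g2, Atp5k and Atp5l of complex V, Cox6a1 of complex IV, Ndufa6, Ndufa8 and Ndufa11 of complex I, Sdhb of complex II and the assembly factor gene Ndufaf4. In 5 of these the letters were on both strands, with the matches overlapping. CCGGAAGT was in 3 windows, 3.75%, above the 2.88% of all windows and below the 4.93% of other genes tested. AAGGTCA was in 5, 6.25%, against 4.08% and 3.16% of those backgrounds, and AAGATGGC in 2, 2.50%, against 1.57% and 1.85%. A match describes letters and is not evidence of binding. The windows run 5′ to 3′ on the strand of the gene and end at the base before its start, with the NRF1 letters of both strands in capitals. They lie at chr13:114388095-114388344 on the minus strand for Ndufs4, chr17:56717512-56717761 on the plus strand for Ndufa11, chr4:24897833-24898082 on the plus strand for Ndufaf4, chr5:115348959-115349208 on the minus strand for Cox6a1, chr15:102671048-102671297 on the minus strand for Atp5g2 and chr5:108434400-108434649 on the minus strand for Atp5k.
Ndufs4: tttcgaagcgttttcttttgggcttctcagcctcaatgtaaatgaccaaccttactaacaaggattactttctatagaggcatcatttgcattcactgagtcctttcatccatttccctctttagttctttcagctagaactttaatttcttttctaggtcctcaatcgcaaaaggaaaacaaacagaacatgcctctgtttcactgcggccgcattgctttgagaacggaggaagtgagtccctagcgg
Ndufa11: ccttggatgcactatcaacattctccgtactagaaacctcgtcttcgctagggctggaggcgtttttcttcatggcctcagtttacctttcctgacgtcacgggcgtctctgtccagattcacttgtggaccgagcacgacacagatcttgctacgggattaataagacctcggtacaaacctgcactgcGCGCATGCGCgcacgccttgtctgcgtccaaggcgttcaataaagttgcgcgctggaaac
Ndufaf4: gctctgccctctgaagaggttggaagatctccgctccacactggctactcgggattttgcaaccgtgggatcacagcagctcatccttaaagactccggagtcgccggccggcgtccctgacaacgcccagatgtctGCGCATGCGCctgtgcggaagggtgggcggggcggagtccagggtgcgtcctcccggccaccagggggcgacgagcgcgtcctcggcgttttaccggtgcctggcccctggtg
Cox6a1: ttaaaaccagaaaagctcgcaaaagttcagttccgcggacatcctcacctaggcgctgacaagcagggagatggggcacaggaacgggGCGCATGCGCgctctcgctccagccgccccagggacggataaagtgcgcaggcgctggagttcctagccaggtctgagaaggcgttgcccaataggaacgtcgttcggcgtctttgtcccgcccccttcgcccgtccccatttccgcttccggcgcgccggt
Atp5g2: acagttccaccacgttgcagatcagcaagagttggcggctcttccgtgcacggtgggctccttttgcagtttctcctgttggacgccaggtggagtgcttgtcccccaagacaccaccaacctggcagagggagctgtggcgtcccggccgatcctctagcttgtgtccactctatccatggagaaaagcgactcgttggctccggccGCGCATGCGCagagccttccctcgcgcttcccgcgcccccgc
Atp5k: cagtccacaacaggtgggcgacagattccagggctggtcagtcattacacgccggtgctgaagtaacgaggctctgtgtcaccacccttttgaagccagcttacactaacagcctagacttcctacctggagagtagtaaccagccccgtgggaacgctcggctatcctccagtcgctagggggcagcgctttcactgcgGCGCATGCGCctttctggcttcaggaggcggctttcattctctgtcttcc
The NRF1 letters ended 32 bases before the start in Atp5g2, 40 in Atp5k, 50 in Ndufa11, 103 in Ndufaf4 and 152 in Cox6a1. The Ndufs4 window held none of the 4 motifs, and its G and C content of 42.0% was near the low end of the 74 genes (38.8% to 70.8%, median 56.2%).

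The first question was whether high fat feeding moved the respiratory chain genes in the control lineage. No member passed an adjusted p of 0.05 in HFD_Cont against STD_Cont (limma, Benjamini-Hochberg over 19937 names), where 2.91% of all genes tested were called. At an unadjusted p under 0.05 there were 4 of 90 members, 4.44%, against 16.6% of all genes. The share was 7.76% for 696 other genes of like brightness, whose mean levels lay between the members' quartiles of 6.41 and 8.72. Differences of the members ran from -0.16 to 0.31 log2, with a median of 0.024 beside 0.0023 over all genes. They were above 0 for 65 of the 90 (72.2%), namely 34 of 45 in complex I, 3 of 4 in complex II, 7 of 8 in complex III, 12 of 16 in complex IV and 9 of 17 in complex V. Above 0 were also 50.8% of all genes and 36.6% of the 696 of like brightness. Subunit genes vary together from array to array, so such counts of signs are not independent votes. Under 5 ways of scaling the arrays the medians of complexes I to IV stayed above 0, and that of complex V ran from -0.011 to 0.0092. On slide 3 alone the median of all members was -0.0045, on the other side of 0.

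The second question was whether the omega 3 lineage differed from the control lineage under high fat feeding. No member passed in HFD_O3 against HFD_Cont, where limma called 0% of the genes tested and 7.08% had an unadjusted p under 0.05. Of the members, 3 of 90 (3.33%) had such a p, beside 3.02% of the 696 other genes of like brightness. The members' differences ran from -0.16 to 0.052 log2 with a median of -0.031, beside -0.014 over all genes. They were above 0 for 21 of 90 (23.3%), beside 44.2% of all genes and 36.8% of the 696 of like brightness. By complex these were 12 of 45 in complex I, 0 of 4 in complex II, 1 of 8 in complex III, 4 of 16 in complex IV and 4 of 17 in complex V. The medians of complexes I, II, IV and V stayed below 0 under the 5 scalings, and that of complex III ran from -0.030 to 0.0050. On slide 2 alone the median of all members was 0.032, on the other side of 0.

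In HFD_O3 against STD_Cont again no member passed, and 0.597% of all genes were called. At an unadjusted p under 0.05 there were 2 members of 90 (2.22%), against 11.2% of all genes and 7.47% of the 696 of like brightness. Above 0 were 36 of 90 members (40%), beside 44.35% of all genes and 28.0% of the 696 of like brightness. The median difference was -0.0051 log2 beside -0.015 over all genes. The sign of this median depended on the scaling: it ran from -0.027 to 0.022 under the 5 scalings, and it was 0.071 on slide 2 alone and -0.094 on slide 3 alone. The 3 comparisons share groups and are not independent of each other. In none of them did any of the 90 members separate its groups without overlap, which 1.14%, 0.0351% and 0.15% of all genes did in HFD_Cont against STD_Cont, HFD_O3 against HFD_Cont and HFD_O3 against STD_Cont.

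**Figure D1:**
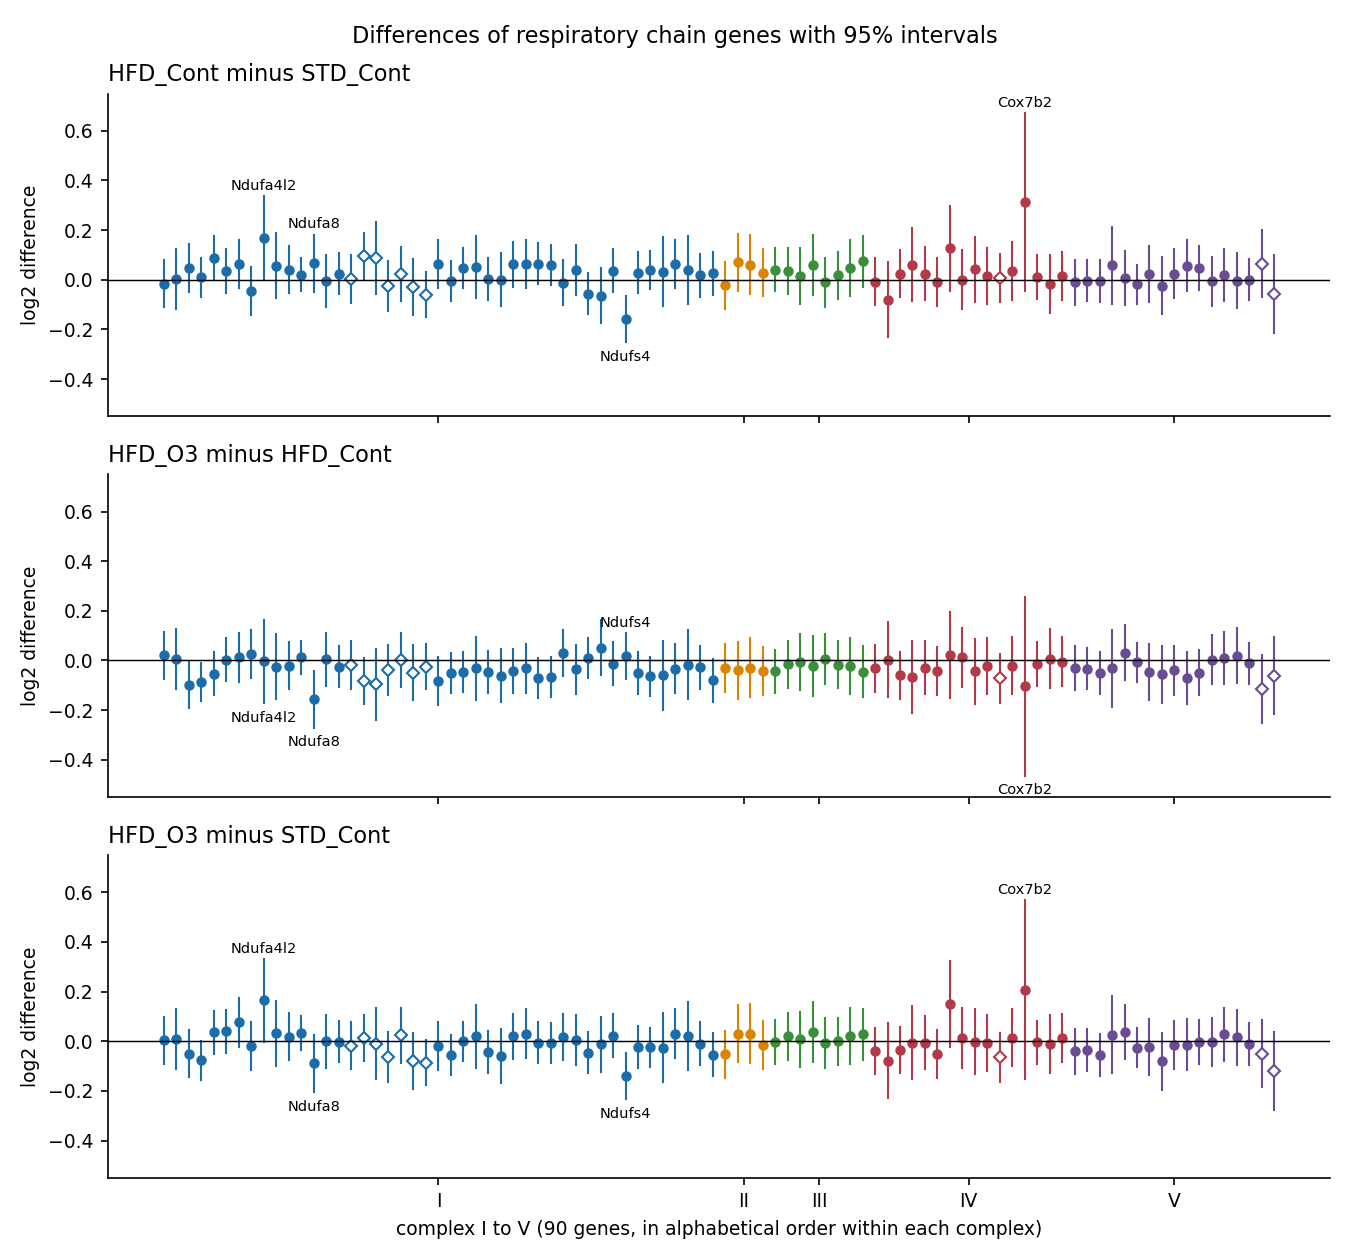
Log2 difference (points) and 95% interval (lines) of the 90 tested genes in HFD_Cont minus STD_Cont, HFD_O3 minus HFD_Cont and HFD_O3 minus STD_Cont, coloured by complex, with open diamonds for names that are no subunits. Ndufs4 lies lowest in the first panel at -0.16 and Ndufa8 lowest in the second at -0.16, while Cox7b2 has the widest intervals.

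For the brightest probe of each gene and the scaling used here, the intervals bound how large a difference could have gone unseen. Each mouse was read on 1 array, so the intervals mix variation between mice with variation between arrays. They do not cover the choice of probe or of scaling. Gaps between probes of the same gene are given further below. In HFD_Cont against STD_Cont the 95% interval of 86 of the 90 members lay within 0.25 log2 (1.19-fold) of 0, and that of 58 lay within 0.15 log2 (1.11-fold). In HFD_O3 against HFD_Cont the counts were 87 and 60, and in HFD_O3 against STD_Cont they were 86 and 67. Over all genes tested, 8088, 9051 and 8745 of 19937 intervals lay within 0.25 log2 in the same order of comparisons. Bright probes have narrower intervals, and for the 696 other genes of like brightness the counts were 563, 556 and 545. The members varied little between mice: their residual SD within groups had a median of 0.085 log2, against 0.11 for 696 other genes of like brightness and 0.18 for all genes. Cox7b2, a testis form of a complex IV subunit with a dim probe, had the highest residual SD among members (0.36), and Ndufa7 the lowest (0.043).

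Complex I held the members with the smallest p in every comparison. Ndufs4 encodes an accessory subunit needed for a late step of complex I assembly, and its loss in mice gives an early fatal brain disease. Its level ran from 6.77 to 6.94 with a median of 6.84 in HFD_O3 mice, from 6.71 to 7.0 with a median of 6.82 in HFD_Cont mice and from 6.87 to 7.09 with a median of 6.98 in STD_Cont mice. All 8 HFD_O3 arrays and 7 of 8 HFD_Cont arrays lay below the STD_Cont median, and the ranges overlapped. The difference was -0.16 ± 0.044 log2 (SE, n = 8 each, 95% interval -0.25 to -0.066) in HFD_Cont against STD_Cont, 0.896-fold, with an adjusted p of 0.0528 by limma. In HFD_O3 against STD_Cont it was -0.14 ± 0.044 (adjusted p = 0.170, limma) and in HFD_O3 against HFD_Cont 0.017 ± 0.044 (adjusted p = 0.952, limma). Within slides 1, 2 and 3, HFD_Cont against STD_Cont gave -0.18, -0.19 and -0.14. On slide 2 the HFD_Cont arrays were all in row 1 and the STD_Cont arrays all in row 2. With slide and row blocked the difference was -0.16 with an adjusted p of 0.217 (limma). The call turned on small choices: with slide as a fixed block the adjusted p was 0.0364, without HFD_O3 arrays 1 and 7 it was 0.0321, and under median scaling it was 0.211. Without the arrays whose white adipocyte score was over 0.5 the difference was -0.14 with an adjusted p of 0.528. That fit held fewer arrays and called 0 of 19937 genes in this comparison. Ndufs4 was measured by 1 probe, on chromosome 13 from 115078980 to 115079039 in mm9.

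Ndufa8, an accessory subunit on the intermembrane side of complex I, had the smallest p in HFD_O3 against HFD_Cont. Its level ran from 5.56 to 5.83 with a median of 5.67 in HFD_O3 mice, from 5.67 to 5.97 with a median of 5.85 in HFD_Cont mice and from 5.62 to 5.96 with a median of 5.78 in STD_Cont mice. All 8 HFD_O3 arrays lay below the HFD_Cont median, with overlapping ranges. The difference was -0.16 ± 0.056 log2 (SE, n = 8 each) with an unadjusted p of 0.0103 and an adjusted p of 0.638 by limma. Ndufa11 and Ndufa12, both accessory subunits, were the other members under an unadjusted p of 0.05 there, at -0.097 ± 0.046 and -0.086 ± 0.037, with adjusted p of 0.697 and 0.661 (limma). Ndufa12 was also the second such member in HFD_O3 against STD_Cont, at -0.077 ± 0.037 with an adjusted p of 0.444 (limma).

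In HFD_Cont against STD_Cont the other members with an unadjusted p under 0.05 were Ndufa4l2, Ndufa13 and Ndufaf2, all with differences above 0. Ndufa4l2, a hypoxia-induced relative of Ndufa4, had levels from 1.5 to 2.14 (median 1.89) in HFD_O3 mice, 1.67 to 2.14 (median 1.85) in HFD_Cont mice and 1.54 to 1.94 (median 1.69) in STD_Cont mice. Its difference was 0.17 ± 0.081 log2 in HFD_Cont against STD_Cont with an adjusted p of 0.294, and 0.17 ± 0.081 in HFD_O3 against STD_Cont with an adjusted p of 0.449 (limma). In each high fat group most arrays lay above the STD_Cont median, 7 of 8 in both, and the ranges overlapped. Ndufa13, a subunit also known as a cell death regulator, differed by 0.089 ± 0.042 (adjusted p = 0.285, limma) in HFD_Cont against STD_Cont. Ndufaf2, a factor that holds the place of Ndufa12 during assembly, differed by 0.096 ± 0.045 (adjusted p = 0.280, limma).

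Conserved core subunits of complex I carry its redox centres, and the 6 named here differed little between groups. In HFD_Cont against STD_Cont, Ndufs1, the largest of them with several iron-sulfur clusters, differed by -0.056 ± 0.040. Ndufs3, Ndufs7, Ndufs8, Ndufv1 and Ndufv2 differed by 0.036, 0.033, 0.064, 0.039 and 0.018 log2. None of these had an unadjusted p under 0.05. In HFD_O3 against HFD_Cont the differences of these 6 ran from -0.060 for Ndufs7 to 0.0096 for Ndufs1, and in HFD_O3 against STD_Cont from -0.047 for Ndufs1 to 0.031 for Ndufs8. All 8 HFD_Cont arrays lay below the STD_Cont median of Ndufs1 of 7.50, with levels of 7.33 to 7.48 in HFD_Cont mice against 7.37 to 7.57 in STD_Cont mice.

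**Figure D2:**
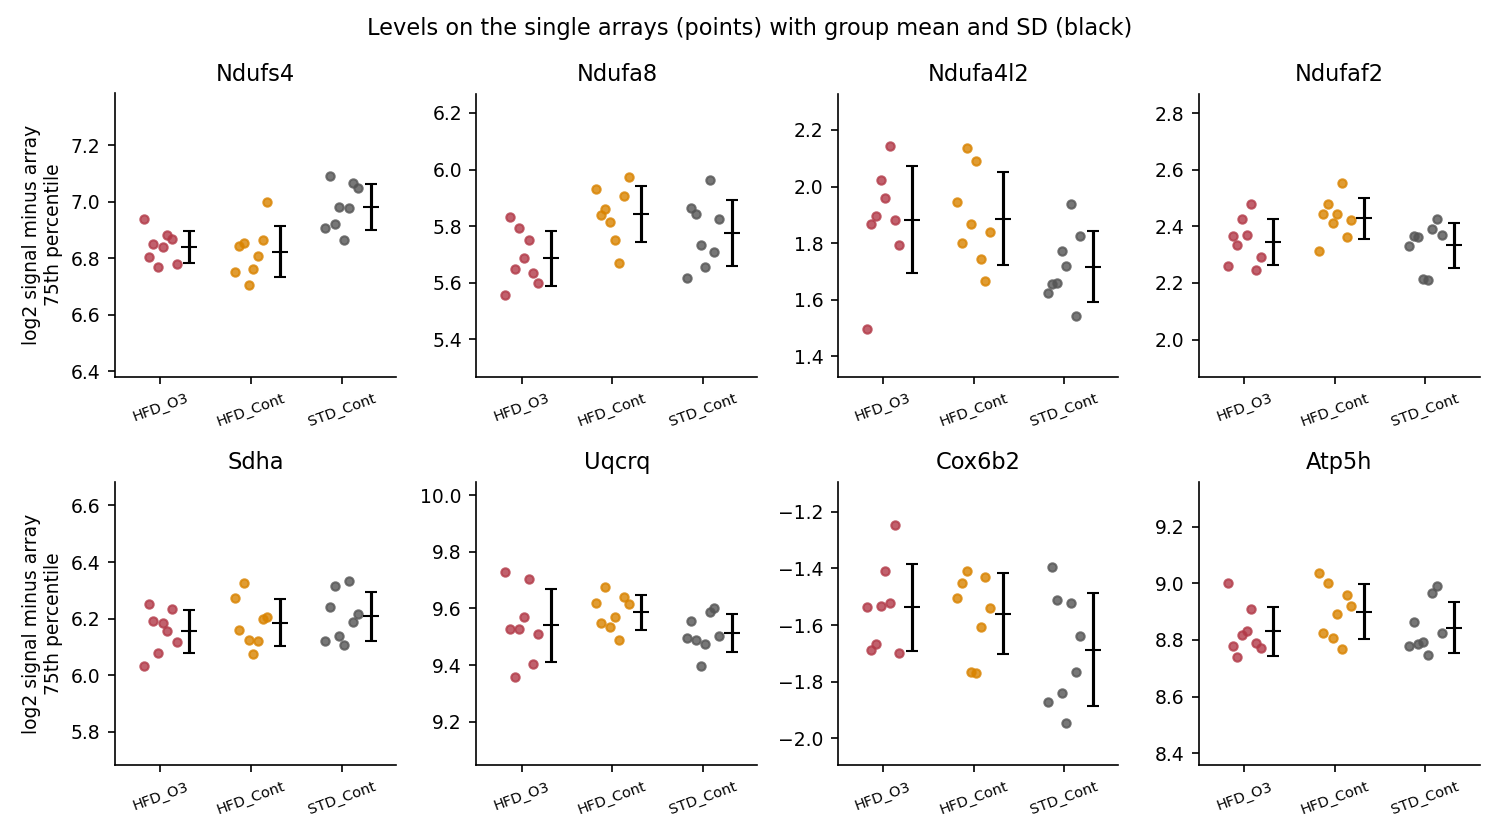
Level (log2 processed signal minus the array's 75th percentile) on each of the 8 arrays per group for 8 genes, with the group mean and SD in black; every panel spans 1 log2 unit. For Ndufs4 the HFD_O3 and HFD_Cont arrays sit mostly below the STD_Cont arrays, and in every panel the groups overlap.

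Complex II is built from 4 nuclear genes, of which Sdha carries the flavin, Sdhb the iron-sulfur clusters, and Sdhc and Sdhd the membrane anchor. Sdha levels ran from 6.03 to 6.25 (median 6.17) in HFD_O3 mice, 6.08 to 6.33 (median 6.18) in HFD_Cont mice and 6.11 to 6.33 (median 6.20) in STD_Cont mice. The 3 groups spanned nearly the same range. In HFD_Cont against STD_Cont, Sdha, Sdhb, Sdhc and Sdhd differed by -0.022, 0.070, 0.060 and 0.028 log2, with SE of 0.046 to 0.057. In HFD_O3 against HFD_Cont the 4 differences lay between -0.043 (Sdhd) and -0.029 (Sdhc), and in HFD_O3 against STD_Cont between -0.052 (Sdha) and 0.031 (Sdhc and Sdhb). The smallest adjusted p of the 4 genes over the 3 comparisons was 0.591, for Sdhb in HFD_Cont against STD_Cont (limma).

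In complex III, Uqcrc1 and Uqcrc2 encode the large core proteins, Uqcrfs1 the Rieske iron-sulfur protein, and Uqcrb, Uqcrh, Uqcrq, Uqcr10 and Uqcr11 smaller subunits. Uqcrq had the smallest p of the complex in HFD_Cont against STD_Cont, with levels of 9.36 to 9.73 (median 9.53) in HFD_O3 mice, 9.49 to 9.68 (median 9.59) in HFD_Cont mice and 9.40 to 9.60 (median 9.50) in STD_Cont mice. The HFD_O3 range enclosed both others. The difference was 0.074 ± 0.050 log2 in HFD_Cont against STD_Cont (adjusted p = 0.513, limma) and -0.045 ± 0.050 in HFD_O3 against HFD_Cont (adjusted p = 0.864, limma). Uqcrc2 had the only difference below 0 in HFD_Cont against STD_Cont (-0.011 ± 0.048) and the only one above 0 in HFD_O3 against HFD_Cont (0.0056 ± 0.048). Uqcr10 had the smallest p of the complex in HFD_O3 against HFD_Cont, at -0.044 ± 0.042 (adjusted p = 0.845, limma). All complex III differences in HFD_O3 against STD_Cont lay between -0.0055 (Uqcrc2) and 0.037 (Uqcrc1).

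Complex IV has subunits with tissue forms, each read by its own probe, so their levels are not set against each other. The heart and muscle forms Cox6a2, Cox7a1 and Cox8b differed by 0.024, 0.042 and 0.016 log2 in HFD_Cont against STD_Cont and by -0.030, -0.044 and -0.0044 in HFD_O3 against HFD_Cont. The widely expressed forms Cox4i1, Cox6a1, Cox6b1, Cox7a2 and Cox8a differed by -0.0078, 0.061, -0.0090, 0.015 and -0.018 in HFD_Cont against STD_Cont. In HFD_O3 against HFD_Cont they differed by -0.032, -0.066, -0.042, -0.022 and 0.0068. Neither the muscle forms nor the widely expressed forms held a gene with an unadjusted p under 0.05 in these comparisons. Cox7b, a small subunit without a known muscle form, differed by 0.035 ± 0.056 in HFD_Cont against STD_Cont and by -0.021 ± 0.056 in HFD_O3 against HFD_Cont.

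The forms best known from other organs had dim probes and wide intervals. Cox4i2, the lung form of subunit 4, had levels from -0.21 to 0.14 (median -0.14) in HFD_O3 mice, -0.25 to 0.22 (median -0.13) in HFD_Cont mice and -0.15 to 0.12 (median 0.028) in STD_Cont mice. Cox6b2, a testis form, ran from -1.70 to -1.25 (median -1.53) in HFD_O3 mice, -1.77 to -1.41 (median -1.52) in HFD_Cont mice and -1.95 to -1.40 (median -1.70) in STD_Cont mice. All 8 HFD_O3 arrays lay above the STD_Cont median of Cox6b2, yet its difference of 0.15 ± 0.083 had an adjusted p of 0.528 (limma). Cox7b2, the testis form of subunit 7b, differed by 0.31 ± 0.17 in HFD_Cont against STD_Cont, with a 95% interval of -0.047 to 0.67 and an adjusted p of 0.390 (limma).

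In complex V the catalytic subunits Atp5a1 and Atp5b had medians of 9.28 and 9.36 in HFD_O3 mice, 9.33 and 9.38 in HFD_Cont mice, and 9.36 and 9.38 in STD_Cont mice. Atp5g1, Atp5g2 and Atp5g3 encode the same c subunit of the rotor with different import signals. They differed by 0.024, -0.024 and 0.024 log2 in HFD_Cont against STD_Cont, by -0.048, -0.056 and -0.039 in HFD_O3 against HFD_Cont, and by -0.024, -0.081 and -0.015 in HFD_O3 against STD_Cont. Atp5h, a subunit of the peripheral stalk, had the smallest p among subunits above 0 in HFD_Cont against STD_Cont, at 0.057 ± 0.050 (adjusted p = 0.637, limma), and differed by -0.071 ± 0.050 in HFD_O3 against HFD_Cont (adjusted p = 0.782, limma). Its levels ran from 8.74 to 9.0 (median 8.80) in HFD_O3 mice, 8.77 to 9.03 (median 8.91) in HFD_Cont mice and 8.75 to 8.99 (median 8.81) in STD_Cont mice. Atp5e, the epsilon subunit of the central stalk, had its largest difference above 0 in HFD_O3 against STD_Cont, at 0.038 ± 0.053.

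Of the 10 names that are no subunits, 0 passed in any comparison. Atp5s, named Dmac2l in RefSeq, differed by -0.11 ± 0.066 in HFD_O3 against HFD_Cont (adjusted p = 0.737, limma). Atp5sl, named Dmac2 in RefSeq, differed by -0.12 ± 0.076 in HFD_O3 against STD_Cont (adjusted p = 0.598, limma). Cox7a2l, a factor that joins complexes III and IV in supercomplexes, had all 8 HFD_O3 arrays below the HFD_Cont median. Its levels were 6.67 to 6.91 (median 6.89) in HFD_O3 mice, 6.81 to 7.10 (median 6.95) in HFD_Cont mice and 6.81 to 7.03 (median 6.92) in STD_Cont mice, and the difference of -0.072 ± 0.047 in HFD_O3 against HFD_Cont had an adjusted p of 0.763 (limma).

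Genes read by several probes show how far these small differences depend on the probe. Of the 90 genes, 33 had more than 1 probe above background, and the brightest was used. The probes of a gene gave opposite signs for 9 of the 33 in HFD_Cont against STD_Cont, 10 in HFD_O3 against HFD_Cont and 14 in HFD_O3 against STD_Cont. The widest gap between probes of a gene was 0.23 log2 for Ndufaf6, 0.32 for Ndufv2 and 0.43 for Uqcrb in those comparisons, each wider than the median absolute difference of the members. With each of the 133 kept member probes tested on its own, 0 were called in any comparison.

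The subunit genes varied together from array to array within a group. After removing group means, each gene was correlated over the 24 arrays with the median of the other subunits. The median r was 0.61 over the 80 subunits, and 51 of them had r above 0.5, against 2.77% of 19847 genes that are no members and 8.48% of the 696 of like brightness. All 8 complex III subunits were above 0.5, with 12 of 15 in complex V, 22 of 38 in complex I, 8 of 15 in complex IV and 1 of 4 in complex II. These counts depended on the scaling: over the other 4 scalings they ran from 6 to 8 in complex III, 7 to 15 in complex V, 16 to 38 in complex I, 8 to 14 in complex IV and 1 to 4 in complex II. Uqcrq (0.91), Ndufb10 (0.89) and Atp5j (0.89), a stalk subunit, had the highest values. Low values were those of Atp5g2 (-0.12), Ndufa4l2 (0.053), Cox7b2 (0.078), Ndufs7 (0.12) and Cox6a1 (0.12). Of the 9 genes with the NRF1 letters, Ndufa6 had r of 0.75, Atp5k 0.72, Sdhb 0.65, Atp5l 0.61, Ndufa8 0.45 and Ndufa11 0.37, while Atp5g2, Cox6a1 and Ndufaf4 lay between -0.12 and 0.12. These r share each array's RNA and scaling value and are descriptions without a test.

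**Figure D3:**
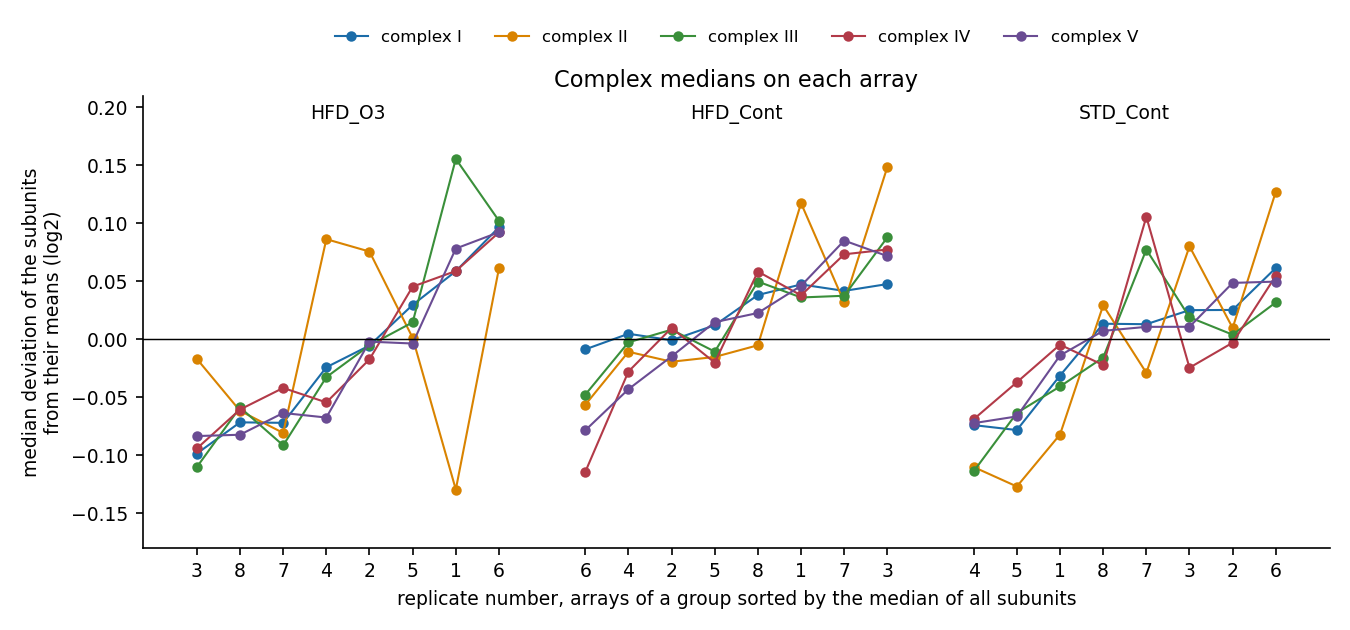
Median deviation of the subunits of each complex from their means over all arrays (log2), on each array, for the 3 groups; arrays are sorted within a group. Complexes I, III, IV and V run close together on most arrays, complex II strays from them most on HFD_O3 array 1, and the groups overlap.

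The medians of complexes I, III, IV and V on an array correlated with each other at r of 0.78 to 0.90 within groups, and complex II with these at 0.33 to 0.54. The complex II median rests on only 4 genes, against 38 in complex I, and the part of that number in the gap was not tested. The gap depended on the scaling: complex II correlated with the others at 0.72 to 0.83 under median scaling, where they correlated with each other at 0.92 to 0.96, and at 0.56 to 0.82 with normexp. The median deviation of all subunits ran from -0.091 to 0.097 log2 in HFD_O3 mice, -0.041 to 0.055 in HFD_Cont mice and -0.075 to 0.060 in STD_Cont mice. The groups overlapped throughout. On HFD_O3 array 1 complex III stood at 0.16 and complex II at -0.13. On HFD_Cont array 4, the array with the lowest Myh7, the median of all subunits was -0.020, well inside the range of its group.

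Of the Ndufaf assembly factor genes, 0 of 7 had r above 0.5 and their median r was 0.034. The contrast with the subunits depended on the scaling. With quantile normalization the median r was 0.54 for subunits and 0.17 for Ndufaf genes, and 0.51 and 0.028 from the authors' deposited log2 values. With median scaling the values were 0.82 and 0.65, and with normexp background correction 0.67 and 0.52. Probe brightness, which does not rank genes by abundance, averaged 1.77 to 4.06 for the Ndufaf genes and had a median of 8.10 over the subunits. Outside the set, the 13 citric acid cycle genes had a median r of 0.39 with 3 above 0.5, and the 18 genes for electron carriers and coenzyme Q synthesis 0.31 with 5 above 0.5. The 10 slow fibre genes had a median of 0.43 with 2 above 0.5, the 8 fast glycolytic genes 0.35 with 0, and the 2 fast oxidative genes 0.52 with 1. The 21 regulators of mitochondrial biogenesis had -0.20 with 3 above 0.5. These lists depended on the scaling too. The regulators' median on an array correlated with that of all subunits at -0.012 here, 0.70 with median scaling and 0.58 with normexp. That of the fast glycolytic genes did so at 0.37 here and -0.78 from the deposited values. Among the extremes of these lists were Cycs (cytochrome c) at 0.80, the citric acid cycle gene Mdh2 at 0.72 and the myoglobin gene Mb at 0.69. Of the 21 regulators, the coactivator gene Ppargc1a was highest at 0.58 and the corepressor gene Nrip1 lowest at -0.57, in the scaling used here. Others of the list lay on both sides, with Nrf1 at -0.28, Gabpa at -0.25 and Esrrg at 0.56. Mb levels ran widely within groups, at 8.86 to 9.28 in HFD_O3 mice, 8.59 to 9.57 in HFD_Cont mice and 8.66 to 9.61 in STD_Cont mice.

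**Figure D4:**
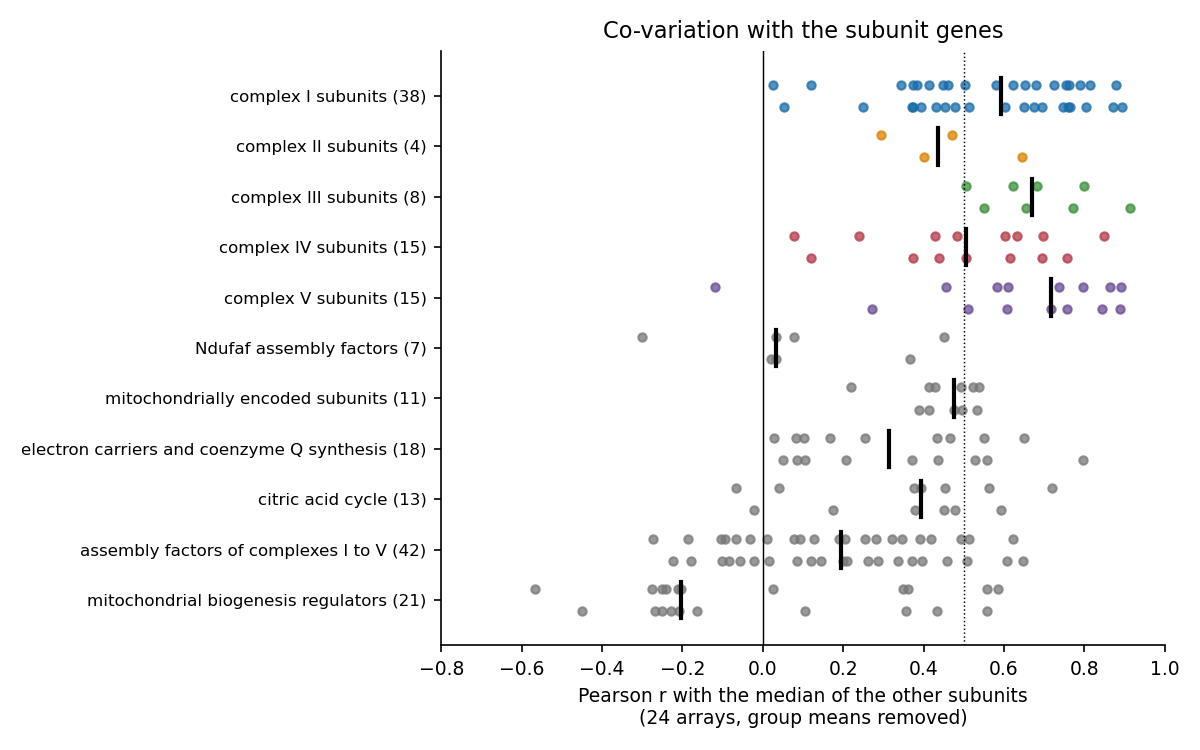
Pearson r of each gene with the median of the other subunits over 24 arrays after removing group means (points), with the median of each set as a black bar and a dotted line at 0.5; the number of genes is in brackets. Complex III and V subunits lie mostly right of 0.5, and all 7 Ndufaf genes lie left of it.

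Genes around the chain were read from lists chosen by function. Of 42 further assembly factor genes, 1 was called higher in HFD_Cont against STD_Cont and in HFD_O3 against STD_Cont, and 0 in HFD_O3 against HFD_Cont, beside 2.91%, 0.597% and 0% of all genes tested in these comparisons. A share of 1 in 42 is near the first of these. The gene was Lyrm7, a chaperone of the Rieske protein of complex III. Lyrm7 levels ran from -3.09 to -2.14 (median -2.67) in HFD_O3 mice, -3.08 to -2.51 (median -2.71) in HFD_Cont mice and -3.87 to -2.78 (median -3.19) in STD_Cont mice, with overlap. It rose by 0.56 ± 0.15 log2 in HFD_Cont mice (adjusted p = 0.0396, limma) and by 0.63 ± 0.15 in HFD_O3 mice (adjusted p = 0.0463, limma) relative to STD_Cont mice. Its probe is dim and dropped out when only probes above background on every array were kept. The filter asked for 6 of 8 arrays in any 1 group, so the STD_Cont levels may lie near background. In which groups the probe passed is not given here. With normexp background correction the differences were 0.17 and 0.22 with adjusted p of 0.241 and 0.200 (limma). Leaving out 1 array in turn kept the call in 13 of 24 fits for HFD_Cont and in 5 of 24 for HFD_O3. With slide and row blocked the adjusted p was 0.252 and 0.164, and with slide as the only fixed block it was 0.0665 for HFD_O3 (limma). The Rieske subunit gene itself, Uqcrfs1, had medians of 7.33 in HFD_O3 mice, 7.37 in HFD_Cont mice and 7.32 in STD_Cont mice.

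Of 18 genes for electron carriers and coenzyme Q synthesis, 1 (5.56%) passed in the same comparisons, beside 2.91% and 0.597% of all genes tested. It was Coq10b, whose product binds coenzyme Q. Its levels were 0.93 to 1.84 (median 1.53) in HFD_O3 mice, 1.23 to 1.75 (median 1.45) in HFD_Cont mice and 0.37 to 1.32 (median 0.90) in STD_Cont mice. It rose by 0.63 ± 0.13 log2 in HFD_Cont mice (adjusted p = 0.0171, limma) and by 0.60 ± 0.13 in HFD_O3 mice (adjusted p = 0.0386, limma) relative to STD_Cont mice. The call was kept in 24 of 24 fits that left out 1 array for HFD_Cont and in 14 of 24 for HFD_O3, and on slide 3 alone the HFD_O3 difference was 0.098. With slide and row blocked the adjusted p was 0.130 for HFD_Cont and 0.15 for HFD_O3, and with slide as the only fixed block it was 0.0621 for HFD_O3 (limma). The electron carriers read on the same arrays gave other values: Cycs differed by 0.016 ± 0.050 and Cyc1, the cytochrome subunit of complex III that the name rule misses, by 0.064 ± 0.055 in HFD_Cont against STD_Cont. Without the arrays whose white adipocyte score was over 0.5, Lyrm7 differed by 0.39 and 0.55 and Coq10b by 0.60 and 0.43 in HFD_Cont and HFD_O3 against STD_Cont, with adjusted p of 0.142 to 0.437 (limma). That fit called 0 of 19937 genes in either comparison. The loss of calls there cannot be told apart from the smaller number of arrays. With that score as a covariate both passed in both comparisons, with adjusted p of 0.0195 to 0.0323 (limma). Over all alternatives apart from leaving out 1 array in turn, Lyrm7 passed in 10 of 20 for HFD_Cont and 3 of 20 for HFD_O3. Coq10b passed in 16 of 21 and 9 of 21. Under median scaling Lyrm7 lost both calls (adjusted p of 0.081 and 0.0713) and Coq10b that of HFD_O3 (0.0642, limma). Of 13 citric acid cycle genes and 21 regulators of mitochondrial biogenesis, 0 passed in any comparison. Mdh2 differed by 0.072 ± 0.043 in HFD_Cont against STD_Cont, Ppargc1a by 0.089 ± 0.25 and Nrf1, the gene of the factor whose letters were searched, by -0.077 ± 0.082.

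The 11 subunit genes of mitochondrial DNA on the array, a list added after its gene names were seen, also had 0 called. Their median difference was 0.064 log2 in HFD_Cont against STD_Cont, 0.028 in HFD_O3 against HFD_Cont and 0.092 in HFD_O3 against STD_Cont, beside -0.0051 for the nuclear members in that comparison. Without HFD_O3 array 1 the second was -0.025, with the sign turned, and the third 0.034. ND6 had the largest difference in HFD_Cont against STD_Cont, 0.16 ± 0.18 (adjusted p = 0.740, limma).

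Marker genes of fibre types and other cells vary on the same arrays. The 10 slow fibre genes had a median difference of -0.48 log2 in HFD_Cont against STD_Cont, 0.21 in HFD_O3 against HFD_Cont and -0.27 in HFD_O3 against STD_Cont, with 0 called. Without HFD_Cont array 4 the first was 0.050 and the second -0.32, both with the sign turned. Their median deviation on an array ran from -0.62 to 0.51 in HFD_O3 mice, -4.12 to 1.48 in HFD_Cont mice and -0.58 to 1.70 in STD_Cont mice. The 9 white adipocyte genes had medians of 0.86, -1.10 and 0.045 in the same order of comparisons, with 0 called and median deviations of -1.80 to 2.36, -1.42 to 2.82 and -1.90 to 1.69 in HFD_O3, HFD_Cont and STD_Cont mice. Of the 5 endothelial genes 1 passed, Kdr, in HFD_Cont against STD_Cont, where 2.91% of all genes were called. Kdr, a receptor of vascular growth factor, rose by 0.45 ± 0.10 in HFD_Cont mice relative to STD_Cont mice (adjusted p = 0.0210, limma), with levels of 2.55 to 3.03 against 2.06 to 2.59. The call was kept in 24 of 24 fits without 1 array. It was lost under median scaling (0.0525), without a filter on dim probes (0.0585) and with slide and row blocked (0.0935). Fits with fewer arrays lost it too: without arrays of high white adipocyte score (0.329) and on single slides (0.267 to 0.692, limma). The other endothelial genes gave -0.41 (Cldn5) to 0.20 (Tie1) there. Of the 5 fibroblast genes 0 passed, and 4 had an unadjusted p under 0.05 in HFD_Cont against STD_Cont, beside 16.6% of all genes. The 4 differed by 0.53 for Col1a1 and Col3a1, -0.17 for Dcn and -0.24 for Pdgfra. The other 9 marker lists had 0 called in any comparison. With the slow fibre score as a covariate the median difference of the members was 0.031 in HFD_Cont against STD_Cont and -0.035 in HFD_O3 against HFD_Cont, and with the white adipocyte score 0.026 and -0.039. The part of these markers in the differences of single members was not tested beyond these fits.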

How the data were processed

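RNA of 24 mouse muscles was hybridised with 1 dye to Agilent arrays; per the file headers, the authors' scanner files hold intensity values extracted with Agilent Feature Extraction 10.10.1.1, with probe positions on mm9. The authors also deposited a table of log2 values of the same arrays, used as an alternative; its columns matched their own arrays, and the steps behind it are not stated in the labels. The submitters' processing notes name limma.

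The processed signal, already background-corrected by the extraction software per the file headers, was put on the log2 scale and the 75th percentile of each array was subtracted. Control spots and outlier flags were left out. Probes well above background on at least 6 of 8 arrays of a group were kept (29246 of 56605), each gene was read from its brightest probe on average, and a model of group means over all 24 arrays was fitted to 19937 names (limma 3.58.1, R 4.3.3; lmFit, eBayes; no covariate; two-sided; Benjamini-Hochberg, threshold 0.05). The replicates are separate mice per the series' design text. The fit was tested on simulated data.

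The gene set and lists were chosen with earlier results of these data known. Named genes are the member with the smallest p in each direction per complex, the 4 Sdh genes, core subunits of complex I, the tissue forms of complexes IV and V, and members of other lists that passed, or up to 2 as values. Ndufa11, Ndufa12, Ndufa13 and the genes named for their correlation were chosen after their values were seen, as were Cyc1, Cycs, Myh7 and the endothelial and fibroblast genes. Gene names are those of the array, and RefSeq symbols were used for other lists (32994 probes). Alternatives covered scaling, background, filter, probe choice, slide, row and replicate number as blocks, marker scores, variance models and arrays left out. The values of 1 gene are not reported here.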

Additional observations from a re-analysis of the deposited data

Results flagged for a closer look

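In 12 of the 312 sets of 8 arrays examined, 3.85%, 1 array lay far from the other 7; chance alone marks about 1 in 20 such sets. The sets were the 90 members, 8 other named genes and the medians of all subunits and of each complex, in each group. HFD_O3 array 1 was the array apart in 4 of them: Atp5l had 9.73 there, above the 9.23 to 9.46 of the other HFD_O3 arrays, and Cox7b 7.97, above 7.58 to 7.72, while Ndufaf6 had 3.04, below 3.33 to 3.48, and Ndufaf7 2.77, below 2.93 to 3.03. On HFD_O3 array 4 Cox7a2l had 6.67, below 6.87 to 6.91. In the HFD_Cont group Cox5a had 9.26 on array 6, below 9.39 to 9.48, and Ndufa4 had 7.81 on array 1, below 7.94 to 8.05. In the STD_Cont group array 7 was high for Cox6c, at 8.83 above 8.60 to 8.68, and for Cox7a2, at 7.78 above 7.57 to 7.66. STD_Cont array 4 was low for Ndufc1, at 8.48 below 8.59 to 8.68, and for Uqcrh, at 8.74 below 8.91 to 9.04. Ndufb6 had 5.88 on STD_Cont array 2, below 6.07 to 6.19.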

How the results depend on the processing

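The count of members called was 0 under every alternative run for HFD_O3 against HFD_Cont and for HFD_O3 against STD_Cont. In HFD_Cont against STD_Cont it was 1, always Ndufs4, with probes above background on every array (adjusted p = 0.0483, limma), slide as a fixed block (0.0364), HFD_O3 arrays 1 and 7 left out (0.0321), trend and robust variance (0.0334) and array weights (0.0348). Leaving out each array in turn gave 0 to 1 members called. It was 1 without HFD_O3 replicate 1, HFD_O3 replicate 7, HFD_Cont replicate 8 or STD_Cont replicate 5, with adjusted p of 0.0397, 0.0425, 0.0291 and 0.0395 for Ndufs4, whose difference stayed between -0.19 and -0.13 under all of these settings. The cause of these shifts was not tested. The median difference moved by more than the spread between arrays on slide 2 alone, to 0.0323 in HFD_O3 against HFD_Cont and 0.0709 in HFD_O3 against STD_Cont, and on slide 3 alone, to -0.0936 in the last; a slide holds fewer arrays, and the cause was not tested. Leaving out arrays moved it within 0.012 to 0.032, -0.045 to -0.020 and -0.023 to 0.0064 in the 3 comparisons. Same-numbered samples did not pair: in each comparison 2 of 8 pairs had correlated deviations over 0.1, and 2 arrays correlated best with their own number. With the replicate block 0 members were called in each comparison, the medians were 0.0238, -0.0311 and -0.00513, and the adjusted p of Ndufs4 was 0.0717. The replicate block also ended the calls of Lyrm7 (0.0534 for HFD_Cont and 0.0741 for HFD_O3 against STD_Cont) and of Coq10b in HFD_O3 against STD_Cont (0.0827). Of 6747 values of the 50 named genes under alternatives, 438 (6.49%) changed sign, none of them while called. The count over all genes, 581 in HFD_Cont against STD_Cont and 119 in HFD_O3 against STD_Cont, differed by over 1.5 times under median scaling (177 and 62), without a filter on dim probes (135 and 46), with blocks for slide and for row on the slide (73 and 47) and with the groups compared alone (1166 and 36). The first was also 1238 without HFD_O3 arrays 1 and 7, 1187 with array weights and 362 adjusted for the white adipocyte score. Leaving out each array gave 182 (without STD_Cont replicate 1) to 977 (without HFD_O3 replicate 7) and 68 (without STD_Cont replicate 3 or HFD_O3 replicate 6) to 343 (without HFD_O3 replicate 7). Without the arrays of high white adipocyte score limma called 0 genes in both, with 1691 and 1715 at an unadjusted p under 0.05, and single slides also gave 0, with 1430 to 2210 and 1161 to 2446. These fits held fewer arrays, and the cause of the lost calls was not tested.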
